A study of Homo sapiens with 8 samples.

Results

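The S100 genes described here are S100A2, S100A3, S100A4, S100A6, S100A10, S100A11, S100A13, S100A14, S100A16 and S100P. They were taken by symbol from the deposited count tables, where all 10 were found among 58828 genes, and they are described across the 8 libraries of 2 human prostate cancer cell lines. Every member called under hydrogen peroxide (H2O2) was called higher. In 22RV1 cells 5 of the 10 rose and none fell, where 12.8% of all genes tested rose and 14.9% fell. In DU145 cells 6 rose and none fell, where 16.9% of all genes rose and 19.8% fell. The members were chosen with earlier results of these data known, so these shares are a description and not a test. The calls of S100A2, S100A10 and S100A11 in 22RV1 and of S100A2 and S100A14 in DU145 held in all 12 alternative runs. Each of the other H2O2 calls was lost in at least 1 run. Most of these runs leave out 1 library and share the rest of the data, so they are not 12 independent checks. For each member the difference between the lines, averaged over their conditions, was larger than its H2O2 estimates. S100A16 and S100A3 were nearly absent from 22RV1 and S100P nearly absent from DU145. The line difference was smallest for S100A11, at 1.07 in log2 against an H2O2 estimate of 0.70 in 22RV1. Forced PAGE4 went with a called change of 1 member, S100A6 in 22RV1, where 2.15% of all genes were called higher and 2.14% lower.

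S100 proteins are small proteins with paired EF-hand loops, most of which bind calcium, change shape and then dock onto target proteins. They act as dimers inside the cell, on annexins, myosin and scaffold proteins, and several are released and signal through receptors such as RAGE (the product of AGER). Most of the genes sit in a cluster on chromosome 1q21, and in epithelium several of them are known as markers of squamous or basal state, stress and invasion.

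22RV1 is a prostate carcinoma line that keeps luminal genes and DU145 one that largely lacks them. In each line, cells carried either an empty doxycycline-inducible lentiviral vector or the same vector with HA-tagged PAGE4, a small disordered cancer-testis protein, and each was given PBS or H2O2 (200 mM in the labels) for 12 h before collection. All cells, controls included, were puromycin-selected pools and, by the study's methods, received doxycycline. There was 1 library per condition and each construct in a line was 1 transduced culture, so no comparison has a replicate check. The p-values below come from 1 edgeR quasi-likelihood fit across all 22418 genes tested. It takes its spread from what line, construct and H2O2 do not account for additively (2 residual degrees of freedom, moderated across genes), and so measures the spread between these libraries only.

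The libraries held 25482984 to 43310401 counts. PAGE4 itself, the check of the construct, had 1 count in 22RV1 vector cells given PBS and 0 in those given H2O2. In 22RV1 PAGE4 cells it had 1489 and 1179 counts in the same order. In DU145 it had 1 count in each vector library and 1001 and 1431 in the PAGE4 libraries, so every library went with its construct label. The PAGE4 counts do not check the treatment labels. The lines also went with their labels. The summed level of 9 luminal prostate genes was 446 to 1578 CPM in the 22RV1 libraries and 47.3 to 51.6 CPM in DU145, where 0 to 3 of the 9 had no count in a library. KLK3, the gene of prostate-specific antigen, had 142 to 1020 counts in the 22RV1 libraries and 0 to 1 in DU145. Of 10 basal or mesenchymal genes, summed at 322 to 435 CPM in 22RV1 and at 1826 to 2263 CPM in DU145, 8 were higher in DU145 and 2 (CD44 and LGALS1) lower. CPM here are counts per 1000000 of the library size after TMM scaling over the 8 libraries. In such bulk samples fewer cells with a transcript and less of it per cell cannot be told apart.

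On GRCh38 with GENCODE 44, 9 of the 10 genes lie on the minus strand of chromosome 1. S100A10 (chr1:151982915-151993859) and S100A11 (chr1:152032506-152047907) stand apart from the cluster that runs from S100A6 (chr1:153534599-153536244) through S100A4 (chr1:153543613-153550136), S100A3 (chr1:153547329-153549258), S100A2 (chr1:153561108-153567890), S100A16 (chr1:153606886-153613145) and S100A14 (chr1:153614255-153616986) to S100A13 (chr1:153618787-153631360). S100P lies alone on chromosome 4 (chr4:6693878-6697170, plus strand). All are protein-coding. S100A3 and S100A4 overlap on the same strand, S100A13 overlaps S100A1 on the other strand and a non-coding gene on its own strand, and S100A6 and S100A11 each overlap a non-coding gene on the other strand. Whether the counting used strand, and how it treated reads shared by overlapping genes, is not given in the sources used here, so the values of these genes, and above all the split between S100A3 and S100A4, are uncertain.

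All 10 members matched RefSeq promoter entries (14 start sites, GRCh38.p14). The stretches upstream of the start sites of S100A2, S100A14 and S100A3 are shown because these genes had the 3 highest H2O2 estimates in DU145. They are written 5′ to 3′ on the gene's strand. Capitals mark the letters TGANTCA, known as the AP-1 site, or TGACNNNGC, the core of the antioxidant response element, on either strand. No match to one overlapped a match to the other.
S100A2, chr1:153565845-153566094, minus strand: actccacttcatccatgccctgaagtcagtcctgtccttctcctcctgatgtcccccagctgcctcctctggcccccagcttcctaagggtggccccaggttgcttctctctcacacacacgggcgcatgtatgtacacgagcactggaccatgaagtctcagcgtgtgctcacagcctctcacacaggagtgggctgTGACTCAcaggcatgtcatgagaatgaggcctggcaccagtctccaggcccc
S100A14, chr1:153616356-153616575, minus strand: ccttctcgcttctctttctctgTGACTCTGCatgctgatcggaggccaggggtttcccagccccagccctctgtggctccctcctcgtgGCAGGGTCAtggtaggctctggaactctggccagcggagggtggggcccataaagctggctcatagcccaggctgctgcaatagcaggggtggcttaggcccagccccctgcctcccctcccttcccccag
S100A3, chr1:153549259-153549508, minus strand: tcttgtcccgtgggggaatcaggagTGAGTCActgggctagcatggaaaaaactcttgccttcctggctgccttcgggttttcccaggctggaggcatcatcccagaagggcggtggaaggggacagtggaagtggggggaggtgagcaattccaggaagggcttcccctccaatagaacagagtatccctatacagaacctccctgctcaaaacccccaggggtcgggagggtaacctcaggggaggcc
The S100A2 window holds TGACTCA starting at -52 from the start site, and the S100A3 window holds TGAGTCA starting at -225. The S100A14 window, printed without the 30 bases next to the start site because they lie in an exon of another transcript, has no AP-1 letters but 2 matches to the antioxidant core, TGACTCTGC starting at -228 and a second one on the opposite strand. The second S100A2 start site in the table has neither. Over 250 bases, the AP-1 letters were in 2 of the 14 member windows and in 2308 of all 35116 promoters (6.57%), and the antioxidant core was in 2 of the 14 (S100A14 and S100A13) and in 3830 of all (10.9%). These are matches of letters only.

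Ordered by level per kilobase of annotated exon, S100A11, the partner of annexin A1, was first in both lines. In 22RV1 it averaged 295 CPM per kb over the 4 libraries (range 199 to 388), ahead of S100A10, the partner of annexin A2, at 136 (94.6 to 189). The ranges of these 2 genes did not overlap. S100P, a RAGE and ezrin ligand first found in placenta, followed at 72.5 CPM per kb (55.1 to 102), with a range that overlapped that of S100A10. S100A6 was at 25.0 (13.5 to 33.7) and S100A13, which takes part in the release of FGF1 and IL1A, at 6.50 (5.93 to 6.87). S100A2, a member known from squamous epithelium, was at 0.616 CPM per kb and S100A14 at 0.291, and their ranges overlapped. S100A4, S100A16 and S100A3 had 14, 12 and 1 counts over the 4 libraries together, so their order is not resolved at this depth.

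In DU145 the top of the order was shared, since S100A11 averaged 603 CPM per kb (504 to 717) and S100A6 575 (460 to 693), and their ranges overlapped. S100A10 followed at 329 CPM per kb (297 to 356), S100A16 at 159 (104 to 204) and S100A13 at 23.6 (21.6 to 25.4), and the ranges of these 3 neighbours did not overlap. Below them stood S100A2 at 9.76 CPM per kb, S100A14 at 3.93, S100A4 at 3.45, S100A3 at 2.46 and S100P at 1.21, and each of these overlapped the next. The 10 members together took 0.0307 to 0.0595% of all counts in the 22RV1 libraries and 0.127 to 0.179% in DU145, and within each line both H2O2 libraries were above both PBS libraries.

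**Figure D1:**
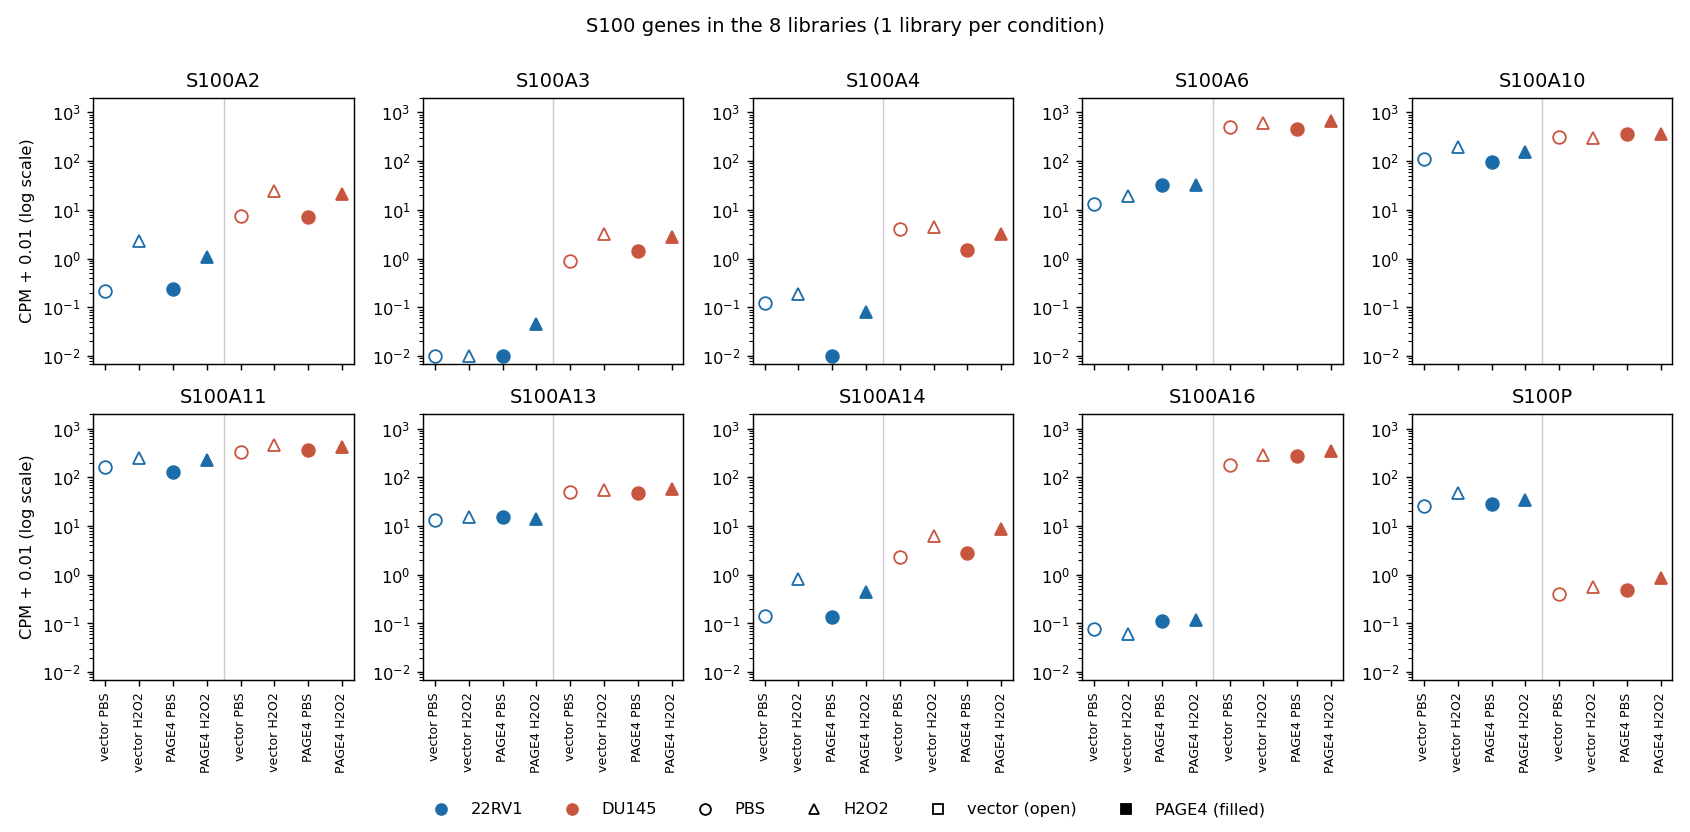
The level of each S100 gene in each of the 8 libraries, as CPM + 0.01 on a log axis, 1 point per library; colour gives the line, circles PBS, triangles H2O2, open symbols vector and filled symbols PAGE4. S100A16 runs at 177 to 346 CPM in DU145 against 0.0516 to 0.106 CPM in 22RV1, and S100P runs the other way.

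**Figure D2:**
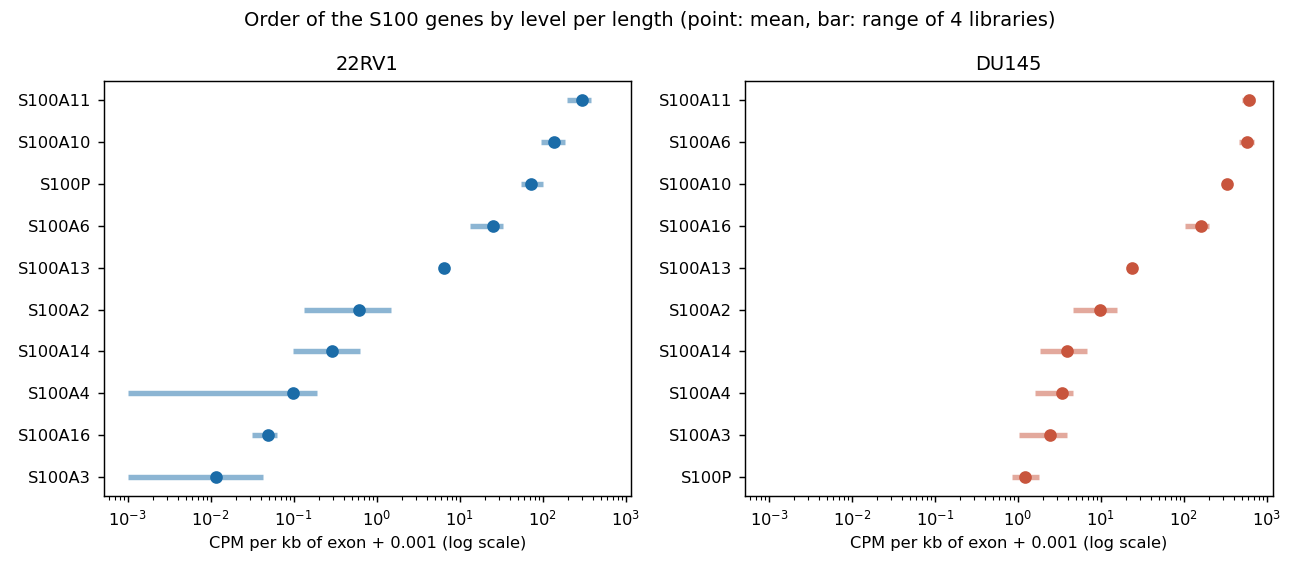
Mean (point) and range over 4 libraries (bar) of each S100 gene's level in 22RV1 (left) and DU145 (right), as CPM per kb of exon + 0.001 on a log axis, ordered by the mean in each line. S100A11 heads both orders, S100P stands next to S100A10 in 22RV1 and last in DU145, and S100A16 is last but one in 22RV1 and next to S100A10 in DU145.

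S100 levels differed between DU145 and 22RV1. S100A3, S100A4 and S100A16 had fewer than 10 counts in every 22RV1 library, so they passed the filter on low counts through DU145 and had to differ. The other 7 members were called too, 6 higher in DU145 and S100P lower. Over all genes tested, 34.6% were higher in DU145 and 39.2% lower at the same limit (an adjusted p under 0.05). The median log2 difference was 1.86 over these 7 members and -0.09 over all genes (-0.28 when libraries were scaled by total counts, which left the 7 calls). S100A16, a widely expressed member that pairs with S100A14, is the extreme case. It had 3, 2, 4 and 3 counts in the 22RV1 libraries (vector PBS, vector H2O2, PAGE4 PBS and PAGE4 H2O2) and 4843, 7222, 7322 and 8696 in the DU145 libraries in the same order. Summed over the libraries of a line, this is a 3395-fold higher level in DU145 (95% counting interval 1943 to 6571). S100P ran the other way, with 1156, 1857, 1117 and 982 counts in 22RV1 and 11, 14, 13 and 21 in DU145, 59.7-fold higher in 22RV1 (46.2 to 78.6). No library of one line came near the range of the other for either gene.

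S100A6, which binds annexin A11 and the calcyclin-binding protein, was at 13.1, 19.0, 32.2 and 32.7 CPM in 22RV1 and at 509, 606, 447 and 673 CPM in DU145, a log2 difference of 4.60 (SE 0.08, edgeR adjusted p = 2.4e-18). S100A2 was at 0.202 to 2.32 CPM in 22RV1 and 7.19 to 24.3 CPM in DU145, and its log2 difference was 4.47 (SE 0.19, edgeR adjusted p = 4.7e-13). S100A14, a member of epithelial surfaces, was at 0.125 to 0.80 CPM against 2.34 to 8.72 CPM (log2 difference 3.95, SE 0.27, edgeR adjusted p = 3.5e-10). The groups did not overlap for any of these genes. S100A4, the metastasis-associated member that binds non-muscle myosin, had 5, 7, 0 and 2 counts in 22RV1 and 109, 109, 41 and 80 in DU145. S100A3, a protein of the hair cuticle, had 0, 0, 0 and 1 counts in 22RV1 and 24, 81, 38 and 69 in DU145. The 22RV1 counts of these 2 genes are too few to resolve differences between conditions in that line. S100A10, S100A11 and S100A13 differed least, with log2 differences of 1.32 (SE 0.05), 1.07 (SE 0.06) and 1.86 (SE 0.09), again with DU145 above 22RV1 in every library.

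The largest H2O2 estimates among the resolved members were those of S100A2, S100A14 and, in DU145, S100A3. S100A2 went from 0.202 CPM in PBS to 2.32 CPM in H2O2 in 22RV1 vector cells and from 0.225 to 1.06 CPM in 22RV1 PAGE4 cells. In DU145 it went from 7.30 to 24.3 CPM in vector cells and from 7.19 to 21.6 CPM in PAGE4 cells. Every H2O2 library was above both PBS libraries of its line. The edgeR log2 estimate was 2.96 in 22RV1 (SE 0.36, adjusted p = 8.6e-06) and 1.66 in DU145 (SE 0.20, adjusted p = 5.1e-06), and both calls held in all 12 alternatives. In single pairs the ratio was 10.95-fold in 22RV1 vector cells (95% counting interval 5.79 to 26.0, from 9 and 90 counts) and 4.55-fold in 22RV1 PAGE4 cells (2.19 to 11.3, from 9 and 30 counts). It was 3.32-fold and 3.0-fold in DU145 vector and PAGE4 cells.

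S100A14 went from 0.135 to 0.80 CPM in 22RV1 vector cells and from 0.125 to 0.424 CPM in 22RV1 PAGE4 cells. In DU145 it went from 2.34 to 6.26 CPM and from 2.73 to 8.72 CPM. It thus rose in 4 of 4 pairs, by 5.57-fold, 3.22-fold, 2.67-fold and 3.18-fold in that order. The edgeR log2 estimate was 2.21 in 22RV1 (SE 0.50, adjusted p = 0.0028) and 1.55 in DU145 (SE 0.30, adjusted p = 0.00044). The DU145 call held in all 12 alternatives. The 22RV1 call rests on 5 to 31 counts per library. It was lost without the vector PBS or the vector H2O2 library, where only the PAGE4 pair remained and the estimate was 1.73 or 1.71.

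S100A3 went from 0.877 to 3.25 CPM in DU145 vector cells and from 1.4 to 2.75 CPM in DU145 PAGE4 cells, and both H2O2 libraries were above both PBS libraries. The edgeR log2 estimate was 1.41 (SE 0.48, adjusted p = 0.028). This call was lost with DESeq2 (adjusted p = 0.16) and without DU145 vector PBS, vector H2O2 or PAGE4 H2O2, where the estimate was 0.96, 0.97 or 1.88 (edgeR adjusted p over the alternatives 0.0061 to 0.43). Its neighbour S100A4, with which it shares part of its locus, was at 3.98 and 4.38 CPM in DU145 vector cells and at 1.51 and 3.19 CPM in PAGE4 cells, in PBS and H2O2. The S100A4 estimate was 0.57 (SE 0.39, edgeR adjusted p = 0.28).

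The annexin partners S100A10 and S100A11 rose in 22RV1. S100A10 went from 111 to 191 CPM in vector cells and from 95.7 to 153 CPM in PAGE4 cells. S100A11 went from 163 to 252 CPM and from 129 to 222 CPM. For both genes the 2 H2O2 libraries stood above the 2 PBS libraries. The edgeR log2 estimates were 0.73 (SE 0.08, adjusted p = 1.6e-06) for S100A10 and 0.70 (SE 0.08, adjusted p = 8.2e-06) for S100A11, and both calls held in all 12 alternatives.

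In DU145 the same genes parted. S100A10 was at 316 CPM in PBS and 301 CPM in H2O2 in vector cells and at 355 and 360 CPM in PAGE4 cells, and its log2 estimate of -0.03 had a 95% interval of -0.18 to 0.13 (edgeR adjusted p = 0.85). S100A11 went from 327 to 466 CPM in vector cells and from 362 to 410 CPM in PAGE4 cells, a log2 rise of 0.34 (SE 0.08, edgeR adjusted p = 0.0036). Without the vector PBS or the vector H2O2 library only the PAGE4 pair remained. The S100A11 estimate was then 0.17 or 0.18, and the call was lost.

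ANXA2, which forms a heterotetramer with S100A10 and steadies its protein, moved in opposite directions in the lines. It went from 5.70 to 36.8 CPM in 22RV1 vector cells and from 14.6 to 52.1 CPM in 22RV1 PAGE4 cells. In DU145 it went from 1462 to 982 CPM in vector cells and from 1446 to 1041 CPM in PAGE4 cells. The edgeR log2 estimate was 2.22 in 22RV1 (adjusted p = 1.9e-09) and -0.52 in DU145 (adjusted p = 0.00098). ANXA1, the partner of S100A11, went from 1.39 to 3.36 and from 1.25 to 2.23 CPM in 22RV1 and from 346 to 422 and from 380 to 503 CPM in DU145. It rose in both lines, with log2 estimates of 1.09 and 0.35 (edgeR adjusted p = 7.9e-05 and 0.0020).

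S100A6 and S100A16 rose with H2O2 in DU145. S100A16 went from 177 to 290 CPM in vector cells and from 270 to 346 CPM in PAGE4 cells, a log2 rise of 0.54 (SE 0.09, edgeR adjusted p = 0.00013). The 2 H2O2 libraries were above the 2 PBS libraries. The call failed by a small margin without the vector H2O2 library (0.36, edgeR adjusted p = 0.051, the highest of the 12 alternatives, against 9.9e-13 for the lowest).

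S100A6 went from 509 to 606 CPM in DU145 vector cells and from 447 to 673 CPM in PAGE4 cells, and its log2 rise was 0.42 (SE 0.10, edgeR adjusted p = 0.0025). Without the PAGE4 PBS or the PAGE4 H2O2 library only the vector pair remained. The estimate was then 0.25 in each case, and the call was lost. In 22RV1 the S100A6 estimate for H2O2 was 0.26 (SE 0.11, edgeR adjusted p = 0.093). The 2 constructs differed there: S100A6 was at 13.1 and 19.0 CPM in vector cells and at 32.2 and 32.7 CPM in PAGE4 cells, in PBS and H2O2. That estimate passed the limit in 7 of the 12 alternatives. It was 0.55 without PAGE4 PBS and 0.52 without PAGE4 H2O2, where only the vector pair remained. With libraries scaled by total counts it was 0.39 (edgeR adjusted p = 0.012). Leaving out a DU145 library kept it at 0.26, so those passes reflect a changed spread. At the lowest of the alternatives it was -0.003. The range of the adjusted p over the alternatives was 4.6e-05 to 1. Total-count scaling also shifted the median of all genes in that comparison to 0.12, from -0.00 with TMM.

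S100P went from 26.0 to 47.9 CPM in 22RV1 vector cells and from 27.9 to 34.7 CPM in 22RV1 PAGE4 cells, a log2 rise of 0.60 (SE 0.15, edgeR adjusted p = 0.0053). The ratio was 1.85-fold in vector cells (95% counting interval 1.72 to 1.99) and 1.25-fold in PAGE4 cells (1.14 to 1.36). These intervals cover counting error only, and a difference of the S100P response between the constructs was not tested. Without the vector PBS or the vector H2O2 library only the PAGE4 pair remained. The S100P estimate was then 0.31 or 0.29, and the call was lost. In DU145 its 11 to 21 counts per library gave an estimate of 0.66 (SE 0.41, edgeR adjusted p = 0.23). S100A13 was the steadiest member. It was at 13.1, 15.2, 15.2 and 14.1 CPM in the 22RV1 libraries and at 49.3, 56.1, 47.9 and 56.2 CPM in DU145, and its H2O2 estimates were 0.05 (95% interval -0.21 to 0.31) and 0.21 (-0.03 to 0.45).

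Of all genes tested, 12.8% rose with H2O2 in 22RV1 and 14.9% fell, and in DU145 16.9% rose and 19.8% fell. The split of the calls over all genes depends on the scaling. In 22RV1 46.1% of them were higher with TMM and 64.4% with total counts, and in DU145 46.0% and 52.2%. The members called were all higher with both, 5 and 6 in 22RV1 and 6 and 6 in DU145. Beside these shares, 5 of 10 members rose in 22RV1 and 6 of 10 in DU145, with none lower in either line. Because the members were chosen with earlier results of these data known, the contrast with all genes is no test of the family. The median log2 estimate of the members was 0.72 in 22RV1 and 0.55 in DU145, and that of all genes -0.00 and -0.03. S100A3, S100A4 and S100A16 had 0 to 7 counts per library in 22RV1, too few to resolve a change there.

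**Figure D3:**
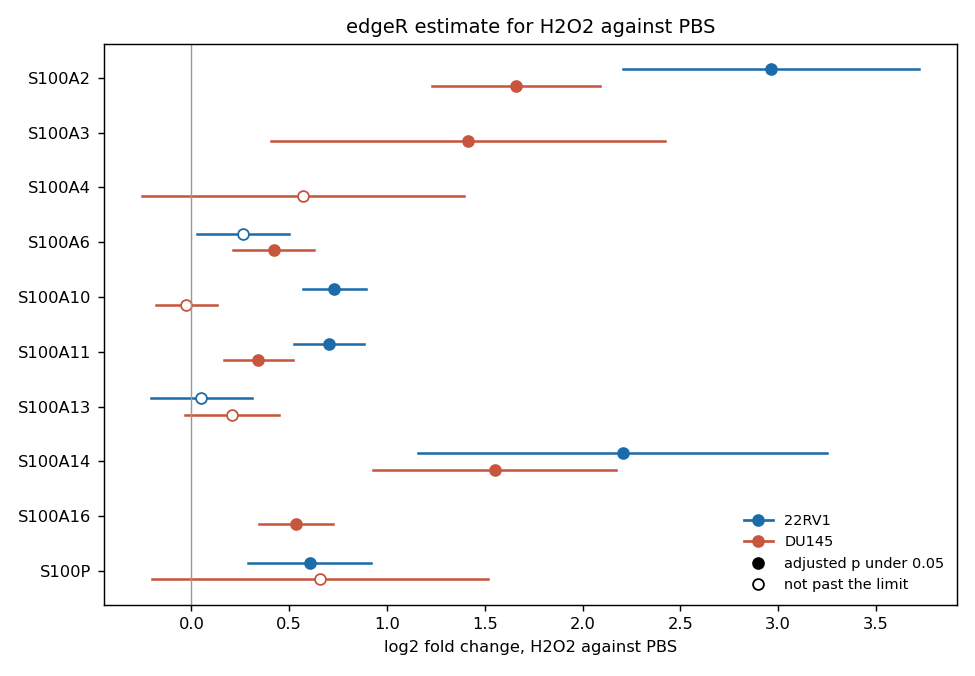
edgeR log2 fold change for H2O2 against PBS in 22RV1 and DU145, averaged over vector and PAGE4 cells; bars are 95% intervals of the fit and filled points have an adjusted p under 0.05. S100A3, S100A4 and S100A16 are left out for 22RV1, where they had 0 to 7 counts per library. S100A2 is furthest right in both lines (2.96 and 1.66), and S100A10 is at 0.73 in 22RV1 and -0.03 in DU145.

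The H2O2 response of 3 members differed between the lines, each being smaller in DU145. Of all genes 7.54% had a higher response in DU145 than in 22RV1 and 8.76% a lower one, a balance that turned with the scaling (46.3% of these calls were higher with TMM, 52.2% with RLE and 36.6% with total counts). For S100A10 the difference of the log2 estimates was -0.76 (SE 0.11, edgeR adjusted p = 9.8e-05), and it held in all 12 alternatives. For S100A2 it was -1.30 (SE 0.43, edgeR adjusted p = 0.047) and for S100A11 -0.36 (SE 0.12, edgeR adjusted p = 0.048). Both of these lay at the limit. The S100A2 difference kept its call in 4 of 12 alternatives and was -0.56 without the 22RV1 vector PBS library and -0.50 without 22RV1 vector H2O2. The S100A11 difference kept its call in 5 of 12 and was -0.20 without either DU145 PAGE4 library. S100A14, with estimates of 2.21 and 1.55, gave a difference of -0.66 with a 95% interval of -1.87 to 0.56, so a difference was not resolved.

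The response also ran beside a change in line markers. In 22RV1, H2O2 lowered all 8 tested genes of the luminal list (median log2 estimate -1.69), whose summed level was 1578 and 1339 CPM in PBS and 446 and 557 CPM in H2O2 (vector and PAGE4 cells). Of the 10 basal or mesenchymal genes, 5 rose and 3 fell in 22RV1, where their sum was 434 and 322 CPM in PBS and 435 and 413 CPM in H2O2. In DU145, 5 of these 10 rose and 4 fell, and 1 of the 8 luminal genes rose and 1 fell. Over all genes 12.8% rose and 14.9% fell in 22RV1, and 16.9% rose and 19.8% fell in DU145. The part of the marker shifts in the S100 values was not tested.

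PAGE4 went with a higher S100A6 level in 22RV1. The gene was at 13.1 CPM in vector and 32.2 CPM in PAGE4 cells in PBS, and at 19.0 and 32.7 CPM in H2O2, so both PAGE4 libraries were above both vector libraries. The ratio was 2.45-fold in PBS (95% counting interval 2.22 to 2.71) and 1.73-fold in H2O2 (1.56 to 1.90). The edgeR log2 estimate was 1.04 (SE 0.11, adjusted p = 1.3e-05) and held in all 12 alternatives. S100A6 was the only called member in this comparison, in which 2.15% of all genes were higher with PAGE4 and 2.14% lower. Line markers also differed between the 22RV1 vector and PAGE4 cells. Of the 10 basal or mesenchymal genes 1 was higher with PAGE4 and 2 lower, with called log2 estimates from -1.87 to 0.49, and of the 8 tested luminal genes 2 were higher and 1 lower (-0.95 to 0.63). Their part in the S100A6 value was not tested.

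In DU145 none of the 10 members passed in the edgeR test, where 0.112% of all genes were higher with PAGE4 and 0.058% lower. At an unadjusted p under 0.05 there were 3, namely S100A16, S100A10 and S100A4, and DESeq2 called 1. The shares of all genes for these 2 counts are not given here, so neither can be read against a background. S100A16 came nearest. It was at 177 CPM in vector and 270 CPM in PAGE4 cells in PBS and at 290 and 346 CPM in H2O2, and its log2 estimate was 0.43 (SE 0.09, edgeR adjusted p = 0.061). It passed the limit in 10 of the 12 alternatives, among them DESeq2 (adjusted p = 0.050), RLE scaling (0.046) and no filter on low counts (0.00021). Leaving out a 22RV1 library kept the DU145 estimate at 0.44, so those passes are no separate check of it. It did not pass without DU145 vector PBS or PAGE4 PBS, where only the H2O2 pair remained. The estimate ran from 0.26 to 0.61 over the alternatives. The vector and PAGE4 ranges of S100A16 overlapped. S100A6 in DU145 gave -0.02 (95% interval -0.23 to 0.19).

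S100A4 was lower in DU145 PAGE4 cells than in vector cells, at 41 against 109 counts in PBS (0.38-fold, 95% counting interval 0.26 to 0.55) and 80 against 109 in H2O2 (0.73-fold, 0.54 to 0.98). The fitted log2 estimate over both pairs was -0.91 (SE 0.39, edgeR adjusted p = 0.61). The counting intervals cover counting error only and do not hold the spread between cultures. In 22RV1 the S100A2 estimate for PAGE4 was -0.84 (SE 0.34, edgeR adjusted p = 0.22), made of 9 counts in both PBS libraries and of 90 against 30 counts in H2O2. S100A10 and S100A11 gave -0.27 (edgeR adjusted p = 0.058) and -0.26 (adjusted p = 0.10) in 22RV1. Without the 22RV1 vector PBS or PAGE4 PBS library the S100A2 estimate was -1.13 or -1.14 (edgeR adjusted p = 0.037 or 0.035). Its adjusted p ran from 0.035 to 1 over the alternatives.

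The PAGE4 estimates of 2 members differed between the lines, in a test where 0.977% of all genes were higher in DU145 than in 22RV1 and 0.865% lower. That of S100A6 was lower in DU145 by 1.06 on the log2 scale, the difference being -1.06 (SE 0.15, edgeR adjusted p = 0.00060), in all 12 alternatives. That of S100A10 was higher, with a difference of 0.48 (SE 0.11, edgeR adjusted p = 0.026) between -0.27 in 22RV1 and 0.21 in DU145, neither of which passed on its own. The S100A10 difference lost its call when any of the 4 DU145 libraries was left out, at 0.53, 0.44, 0.53 and 0.44 without vector PBS, vector H2O2, PAGE4 PBS and PAGE4 H2O2 (edgeR adjusted p 0.072 to 0.19, and 0.00060 to 0.19 over all alternatives).

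**Figure D4:**
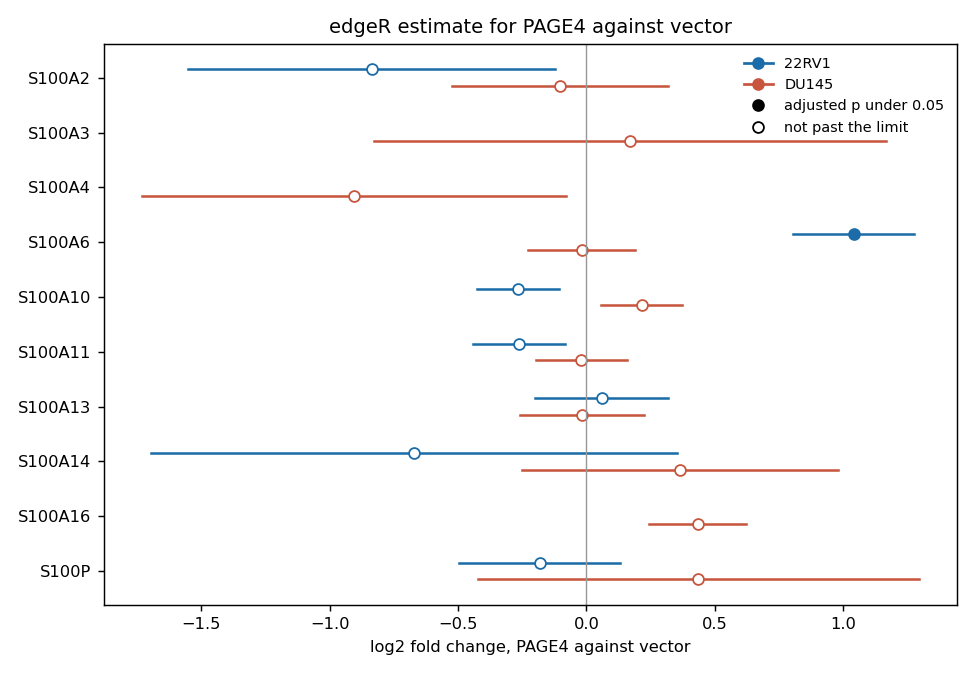
edgeR log2 fold change for PAGE4 against vector in 22RV1 and DU145, averaged over PBS and H2O2; bars are 95% intervals of the fit and the filled point has an adjusted p under 0.05. S100A3, S100A4 and S100A16 are left out for 22RV1. S100A6 in 22RV1 at 1.04 is the only filled point.

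Known partners and receptors of S100 proteins gave a mixed picture. Of 29 genes 26 were tested, and with H2O2 3 rose and 9 fell in 22RV1, and 7 rose and 10 fell in DU145. Over all genes 12.8% rose and 14.9% fell in 22RV1 and 16.9% and 19.8% in DU145. With total-count scaling 4 partners rose and 4 fell in 22RV1. In 22RV1 the largest changes were in ANXA2 (log2 estimate 2.22), in TGM2 (-1.32), a transglutaminase that crosslinks S100 proteins, and in MDM2 (1.21), a ubiquitin ligase. In DU145 they were in TGM2 (-1.35), in the adhesion molecule ALCAM (-1.33) and in tropomyosin TPM1 (-1.22). In 11 of the 26 the response differed between the lines, 4 being higher and 7 lower in DU145 (7.54% and 8.76% of all genes). ANXA2 (-2.75), ALCAM (-1.29) and TPM1 (-0.94) led. AGER, the gene of RAGE, gave -0.05 and -0.40, neither past the limit (edgeR adjusted p = 0.89 and 0.10).

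With PAGE4 in 22RV1, 2 partners rose (ANXA2 by 0.85 and ALCAM by 0.39 in log2) and 2 fell, among them ANXA6 (-0.68), against 2.15% and 2.14% of all genes. None passed in DU145, and the 1 called difference between lines was that of ANXA2 (-0.82, edgeR adjusted p = 0.017). Between the lines 16 of the 26 were higher in DU145 and 5 lower, where 34.6% and 39.2% of all genes were. ANXA1 (log2 difference 7.74), TGM2 (6.58) and ANXA2 (5.90) led. Beside them, the log2 differences of S100A11 and S100A10, the S100 partners of ANXA1 and ANXA2, were 1.07 and 1.32.

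The rest of the family was almost silent. Of 11 other S100 genes in the table, summed at 0.674 to 2.56 CPM per library, S100A1 and S100A9 alone passed the filter on low counts. S100A1, which overlaps S100A13, had 29 to 50 counts per library and no called change. S100A9, a subunit of calprotectin, had 0 to 1 counts in 22RV1 and 5 to 16 in DU145. The inflammatory partner S100A8 had 0 to 2 counts in every library.

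Of 14 tested genes that surround the members on 1q21, none rose and 5 fell with H2O2 in 22RV1, and 1 rose and 7 fell in DU145. Over all genes, too, more fell than rose in both lines with TMM (14.9% against 12.8% and 19.8% against 16.9%). With total counts, where more genes rose than fell in both lines, 1 neighbour rose and 4 fell in 22RV1 and 2 rose and 6 fell in DU145. CREB3L4 (-1.02), SLC27A3 (-0.79) and INTS3 (-0.56) changed most in 22RV1, and TDRKH (-1.54), RAB13 (-0.74) and CREB3L4 (-0.70) in DU145. The H2O2 response of 2 neighbours was lower in DU145 than in 22RV1, TDRKH (-1.38) and THEM4 (-0.61), and of none higher (8.76% and 7.54% of all genes). The fused-type S100 gene FLG, which encodes filaggrin, fell in both lines, with log2 estimates of -0.91 and -3.01 (edgeR adjusted p = 7.3e-05 and 3.8e-09), and its relative TCHH rose in DU145 (1.54, edgeR adjusted p = 0.0049). Between the lines 10 of the 14 neighbours were higher in DU145 and 2 lower, where 34.6% and 39.2% of all genes were. With total counts 10 were higher and 4 lower. CREB3L4 (log2 difference -2.60), THEM5 (2.38) and NPR1 (1.84) differed most. With PAGE4, CREB3L4 alone was called, higher in 22RV1 (0.64, edgeR adjusted p = 0.00064), against 2.15% of all genes higher and 2.14% lower. Its PAGE4 estimate was lower in DU145, with a difference of -0.71 (edgeR adjusted p = 0.022).

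S100A2 had the widest range of any member within a line, 3.0 in log2 (CPM + 0.1) over the 22RV1 libraries. Among 10256 other genes with a mean of at least 5 CPM in both lines, the 3 whose pattern over the 8 libraries, centred within each line, was nearest were ABLIM1, C19orf25 and ZNF274 (Pearson's r 0.997 each). S100A2 itself averaged 0.953 CPM in 22RV1, under that limit. These r values are the highest of 10256, and they compare the shape of a pattern and not its size. ABLIM1, an actin-binding LIM protein, went from 147 to 302 CPM and from 141 to 230 CPM in 22RV1 vector and PAGE4 cells with H2O2, and from 145 to 217 CPM and from 139 to 206 CPM in DU145. All 4 genes were read from the same 8 libraries.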

How the data were processed

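RNA from 8 cultures was sequenced, 1 library for each combination of line, construct and treatment. The labels name Trizol extraction, where the study's methods name a column kit. The authors deposited whole-number counts per gene, 1 table per line with 58828 genes, not normalized. The submitters' processing notes name HISAT2 2.1.0 and featureCounts 1.6.0 with GRCh38; the annotation, strand setting and treatment of shared reads are not given in the sources used here. Because 26 symbols in the tables had turned into dates, genes were read by the remaining symbols. Samples were grouped by their titles. Totals ran from 25482984 to 43310401 counts.

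The counts of both tables were fitted in 1 model in R 4.3.3 with edgeR 4.0.16 (TMM scaling, filterByExpr, quasi-likelihood test), with terms for line, construct within line and H2O2 within line. Benjamini-Hochberg adjustment ran over all 22418 genes tested, and an adjusted p under 0.05 was called. The construct by H2O2 term supplies the spread and so has no test. Standard errors are the log2 estimate divided by the square root of F, an approximation. Ratios of single libraries used a pseudocount of 0.5 counts on the TMM-scaled counts, with exact (Clopper-Pearson) 95% intervals that cover counting error only. Levels per kb used GENCODE 44 exon unions. Promoters came from RefSeq on GRCh38.p14. Alternatives were DESeq2 1.42.0, RLE and total-count scaling, no filter, leaving out each library, a pseudocount of 1 and DESeq2 size factors within each line. A library left out is no check of the estimates of the other line, which keeps all its libraries. In its own line the H2O2 and PAGE4 estimates then rest on 1 pair each. Figures and intervals were made with Python 3.11.15, scipy 1.17.1 and matplotlib 3.10.9.

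The members and gene lists were chosen with earlier results of these data known. Each list's calls were counted by direction and up to 3 of the largest by absolute log2 estimate are named per comparison. For the marker and fused-type lists this was done in part only. For the member with the widest range within a line, the 3 genes nearest in pattern were named. CD44, LGALS1, KLK3, AGER, S100A1, S100A8 and, under H2O2, ANXA1 fall outside this rule and were named after their values were seen. One gene each of the luminal list and the partner list is not reported here, and the lists' sums and counts leave it out.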

Additional observations from a re-analysis of the deposited data

Results flagged for a closer look

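The H2O2 or PAGE4 response of 4 S100 genes differed between the 2 lines in the edgeR test of the difference itself. For the H2O2 response, DU145 minus 22RV1, the difference was -1.302 for S100A2 (edgeR adjusted p = 0.047), -0.7557 for S100A10 (9.8e-05) and -0.3607 for S100A11 (0.048). The S100A2 estimates were 2.96 in 22RV1 and 1.66 in DU145, both higher with H2O2 in 2 of 2 pairs, and those of S100A11 were 0.70 and 0.34, also higher in 2 of 2 pairs in each line. S100A10 was higher in 2 of 2 pairs in 22RV1 and in 1 of 2 in DU145. For the PAGE4 response the difference was -1.059 for S100A6 (edgeR adjusted p = 0.00060), which was higher with PAGE4 in 2 of 2 pairs in 22RV1 and in 1 of 2 in DU145. It was 0.481 for S100A10 (edgeR adjusted p = 0.026), which was lower with PAGE4 in 2 of 2 pairs in 22RV1 and higher in 2 of 2 in DU145. The base levels of these genes differ between the lines, and the part of that in the differences was not tested. Of 10 members tested in each of the 2 contrasts, these are the 5 that passed. Over all genes 7.54% were called higher and 8.76% lower for the H2O2 difference, and 0.977% and 0.865% for the PAGE4 difference. The H2O2 differences of S100A2 and S100A11 kept their calls in only 4 and 5 of 12 alternatives. The PAGE4 difference of S100A10 kept its call in 8 of 12.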

How the results depend on the processing

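The calls between lines held in every alternative run for the 7 members with counts in both lines, as they had to for the other 3, which were counted almost only in DU145. Of 5 members called for H2O2 in 22RV1, leaving out 1 library gave 3 to 6, and of 6 in DU145 3 to 7. The 3 calls of the H2O2 difference became 1 with DESeq2 and 1 with no filter on low counts, and 1 to 3 without 1 library. The 1 PAGE4 call in 22RV1 became 2 with total counts, 3 with no filter and 1 to 3 without 1 library. The 0 PAGE4 calls in DU145 became 1 with DESeq2, RLE, total counts or no filter (S100A16 each time), and 0 to 1 without 1 library. The 2 calls of the PAGE4 difference became 1 to 2 without 1 library. Over all genes, the 960 PAGE4 calls in 22RV1 became 636 with DESeq2. The 38 in DU145 became 62 with RLE, 63 with total counts and 217 with no filter, and the 413 differences became 806 with no filter. Without 1 library, calls over all genes ran from 3717 to 6163 (H2O2 in 22RV1), 5152 to 9258 (H2O2 in DU145), 2071 to 4215 (H2O2 difference), 775 to 1562 (PAGE4 in 22RV1), 18 to 390 (PAGE4 in DU145), 250 to 1251 (PAGE4 difference) and 15362 to 16346 (lines), with a lone library assumed to vary like the others. DESeq2 size factors within each line moved 6 single-pair log2 ratios beyond their counting interval: in DU145 vector cells with H2O2, S100A6 to 0.2928 and S100A11 to 0.5497, and in DU145 PAGE4 cells S100A6 to 0.6432, S100A10 to 0.07239, S100A11 to 0.23 and S100A16 to 0.4122. None changed direction, and a pseudocount of 1 moved none of the 73 ratios. No member's called estimate reversed in any alternative. The cause of the lost or added calls was not tested. Leaving out 1 library changes the estimate, the residual degrees of freedom and the spread together. Depth limits S100A3, S100A4, S100A16 and S100A14 in 22RV1 and S100P in DU145 most, at 0 to 31 counts per library.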
